A study of Mus musculus with 6 samples.

Results

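The 35 mouse genes described here carry glucose into the cell, break it down to pyruvate, and pass the pyruvate on to lactate or to the mitochondria. They were chosen by symbol, from the known enzymes, transporters and regulators of the pathway, and fill 36 of the 55335 rows of the expression table, because Aldoa is listed under 2 identifiers. The table holds RNA levels in cultured GABAergic interneurons of C57BL/6 mouse embryos at embryonic day 14.5, after 12 hours of infection with adeno-associated virus, AAV. The AAV-shbrpf1 group (3 samples) received a virus with a short hairpin directed at Brpf1, and the AAV-scramble group (3 samples) one with a scrambled hairpin; each sample title carries a replicate number from 1 to 3. Brpf1 encodes a scaffold subunit of histone acetyltransferase complexes. One label field calls the source neural progenitor cells, and the labels give neither the promoter that drives the hairpin nor the share of cells infected. They also do not say whether the 3 samples of a group were separate cultures, so the spread behind each p-value is that between these samples and can be technical.

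Glycolysis begins when glucose enters through a facilitative transporter and is trapped by hexokinase, and it is paced by phosphofructokinase, whose activator is made and removed by the bifunctional phosphofructokinase-2 enzymes. Several steps are served by isoforms encoded by separate genes, and brain cell types are known to differ in their choice among them. Neurons are known for the glucose transporter Slc2a3 and the gamma enolase Eno2, and astrocytes for Aldoc and for the export of lactate. Pyruvate becomes lactate through lactate dehydrogenase, or enters mitochondria through the carrier Mpc1/Mpc2 and is oxidised by the pyruvate dehydrogenase complex, which the Pdk kinases switch off. Hif1a, the oxygen-regulated subunit of hypoxia-inducible factor, is a well known activator of many of these genes.

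Levels are given in FPKM, fragments counted per length of transcript and depth of library, so that genes can be set side by side. Depth, estimated from steps between low values, was 13.1 to 19.3 M fragments in the AAV-shbrpf1 libraries and 14.2 to 21.1 M in the AAV-scramble libraries. The 36 rows together held 0.504% to 0.623% of the summed FPKM of a library. Brpf1 itself stood at 3.13, 4.58 and 3.78 FPKM in AAV-shbrpf1 libraries 1, 2 and 3 and at 3.29, 5.45 and 4.84 FPKM in AAV-scramble libraries 1, 2 and 3. The groups overlapped, and an exact two-sided permutation test gave p = 0.4, where 3 against 3 cannot go below 0.1, so no loss of the targeted RNA passed this test in the libraries labelled AAV-shbrpf1. Brpf1 was nonetheless lower in 3 of 3 same-numbered pairs, with differences of -4.88%, -16.0% and -21.8% of the AAV-scramble level, as were 11.3% of all genes tested. With the replicate number as a block its log2 difference was -0.18 ± 0.10 (SE), with a 95% interval from -0.44 to 0.07 (limma adjusted p = 1.00). Libraries with the same replicate number stood close together. Both libraries numbered 2 had less RNA of radial glia and astrocyte markers (7 genes, summing to 401 to 427 FPKM against 954 to 1028 FPKM in the other 4) and of cycling cells (4 genes, 18.7 to 22.3 FPKM against 44.3 to 53.9 FPKM). The glial sum was carried by Fabp7, at 169 and 187 FPKM in number 2 against 569.9 to 758 FPKM elsewhere, and 2 of the 7 markers ran the other way relative to number 1. These were Aldoc, with 80.0 to 86.0 FPKM in number 2 and 53.9 to 62.1 FPKM in number 1, and Aldh1l1, with 58.4 to 60.1 FPKM in number 2 and 23.2 to 26.8 FPKM in number 1. The libraries numbered 2 also had more RNA on ribosomal RNA loci, at 7.73% to 11.9% of estimated fragments against 2.18% to 3.82%. Both libraries numbered 1 held 24.6 to 25.5 FPKM of endothelial and mural markers, carried by Acta2 and Tagln, against 0.567 to 1.38 FPKM elsewhere. Markers of neurons summed to 648 to 851 FPKM and those of GABAergic interneurons to 300.4 to 414 FPKM, so the labelled cell type had its defining RNA in all 6 libraries. The microglial marker Cx3cr1 and the erythroid marker Hba-a1 were listed at 0 throughout. In such mixed samples fewer cells of a type and less RNA per cell cannot be told apart.

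Glucose transport and its trapping were carried mainly by Slc2a3 and Hk1. Slc2a3, the high-affinity transporter, held 38.4% to 60.5% of the FPKM summed over the facilitative glucose transporters, and Slc2a1, the transporter of the blood-brain barrier and many other cells, held 13.6% to 30.5%. Slc2a3 (GRCm38, chr6:122727809-122801640) had 8.68, 23.6 and 16.7 FPKM in AAV-shbrpf1 libraries 1, 2 and 3 and 9.46, 23.3 and 15.1 FPKM in AAV-scramble libraries 1, 2 and 3, while Slc2a1 lay between 5.501 and 7.52 FPKM in all 6. The groups overlapped for both genes, and the libraries numbered 1 were the low ones for Slc2a3. Slc2a6 and Slc2a8, transporters found largely on internal membranes, held 7.07% to 16.8% and 5.19% to 8.79%. Hk1, the hexokinase of brain, held 92.7% to 98.5% of hexokinase FPKM. It lies at chr10:62268855-62379908 and had 35.6, 67.8 and 34.7 FPKM in AAV-shbrpf1 libraries and 26.9, 89.8 and 46.1 FPKM in AAV-scramble libraries, highest in number 2 of both groups. Hk2, the inducible isoform of muscle and proliferating cells, reached 0.524 to 1.19 FPKM. Gpi1, which isomerises glucose 6-phosphate, had 80.9, 120.2 and 66.7 FPKM in AAV-shbrpf1 libraries and 72.8, 113 and 67.7 FPKM in AAV-scramble libraries, again highest in number 2.

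**Figure D1:**
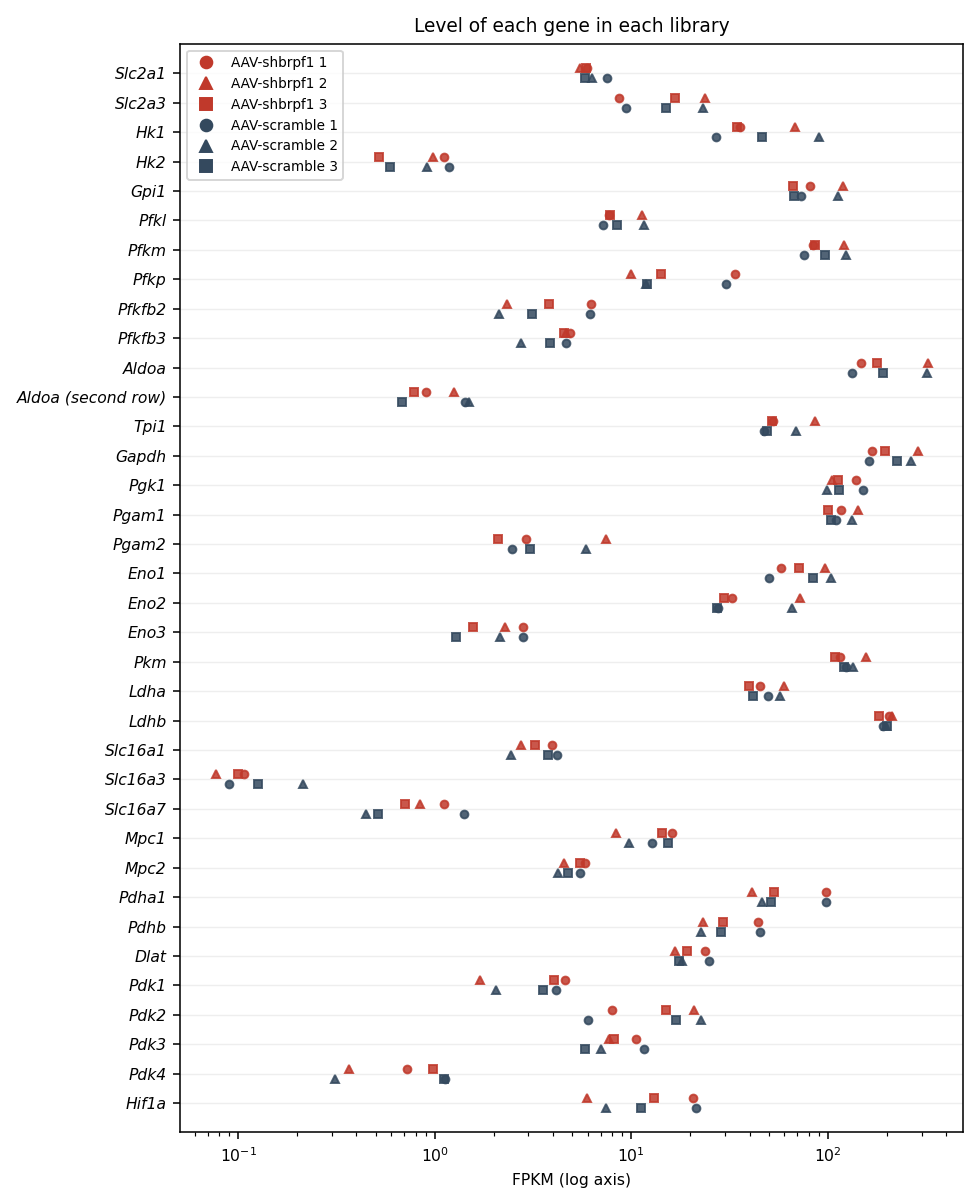
FPKM (log axis) of each of the 36 rows, from glucose transport at the top to Hif1a at the bottom, with one point per library: AAV-shbrpf1 in red above AAV-scramble in dark blue, and the marker giving the replicate number. Levels run from Slc16a3 at 0.077 to 0.213 FPKM to Aldoa at up to 322 FPKM, and triangles (number 2) often stand apart from circles (number 1) in both groups.

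At the commitment step the muscle-type enzyme Pfkm held 66.6% to 84.9% of phosphofructokinase FPKM, ahead of the platelet-type Pfkp with 7.08% to 27.0% and the liver-type Pfkl with 6.12% to 7.98%. Pfkm (chr15:98092589-98132451) had 84.1, 120.4 and 85.9 FPKM in AAV-shbrpf1 libraries and 75.3, 123 and 97.2 FPKM in AAV-scramble libraries. Pfkp had 33.8, 10.03 and 14.2 FPKM in AAV-shbrpf1 libraries and 30.5, 11.9 and 12.0 FPKM in AAV-scramble libraries. The 2 isoforms therefore stood closest in the libraries numbered 1, where Pfkp held 26.9% in the AAV-shbrpf1 library and 27.0% in the AAV-scramble library. Among the bifunctional enzymes Pfkfb3, whose kinase activity is high, held 35.0% to 52.6%, Pfkfb2 26.4% to 46.8% and Pfkfb4 13.4% to 33.1%, at a summed level of only 7.79 to 13.3 FPKM.

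The middle of the pathway held abundant RNAs. Aldoa, the aldolase of most tissues, had 147, 322 and 179 FPKM in AAV-shbrpf1 libraries and 133, 320.3 and 190.4 FPKM in AAV-scramble libraries. Its second row, a neighbouring annotation of the same name, had 0.681 to 1.497 FPKM. Aldoc, the brain aldolase known from astrocytes, held 19.9% to 39.4% of aldolase FPKM, least in number 2 of both groups. Tpi1, triosephosphate isomerase, had 52.9, 86.5 and 52.1 FPKM in AAV-shbrpf1 libraries and 47.5, 68.9 and 49.3 FPKM in AAV-scramble libraries. Gapdh (chr6:125161715-125166467), which makes the first NADH of the pathway, had 168, 288 and 196 FPKM in AAV-shbrpf1 libraries and 161, 265 and 226 FPKM in AAV-scramble libraries, with the sperm isoform Gapdhs at 0.0301% to 0.372%. For Aldoa, Tpi1 and Gapdh number 2 was the highest library of both groups. Pgk1, the first ATP-making enzyme, ran the other way, with 139, 105 and 113 FPKM in AAV-shbrpf1 libraries and 151, 99.2 and 115 FPKM in AAV-scramble libraries. Its testis isoform Pgk2 was listed at 0 in all 6.

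Lower glycolysis was also served by 1 main isoform at each step, except for enolase. Pgam1 held 84.3% to 88.9% of phosphoglycerate mutase FPKM, Bpgm, which makes 2,3-bisphosphoglycerate, 6.46% to 13.2%, and the muscle isoform Pgam2 1.81% to 4.67%. Pgam1 had 116, 142 and 100.2 FPKM in AAV-shbrpf1 libraries and 109.6, 132 and 103 FPKM in AAV-scramble libraries. Eno1, the alpha enolase of most tissues, had 57.8, 97.0 and 71.6 FPKM in AAV-shbrpf1 libraries and 50.1, 104 and 84.1 FPKM in AAV-scramble libraries. The neuronal Eno2 had 32.5, 72.6 and 29.5 FPKM in AAV-shbrpf1 libraries and 27.6, 65.5 and 27.3 FPKM in AAV-scramble libraries. Eno2 thus held 23.9% to 37.0% of enolase FPKM beside 49.4% to 73.6% for Eno1, and the muscle isoform Eno3 1.10% to 2.96%. Eno1b, a near-identical copy of Eno1, was at 1.10 FPKM in AAV-scramble library 3 and at 13.8 to 24.0 FPKM in the other 5, and the Eno1 share was highest in that library. Pkm, pyruvate kinase, had 115, 156 and 109 FPKM in AAV-shbrpf1 libraries and 124, 135 and 121 FPKM in AAV-scramble libraries, and the liver gene Pklr held 0.0502% to 0.244%. A value per gene does not separate the M1 and M2 splice forms of Pkm.

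**Figure D2:**
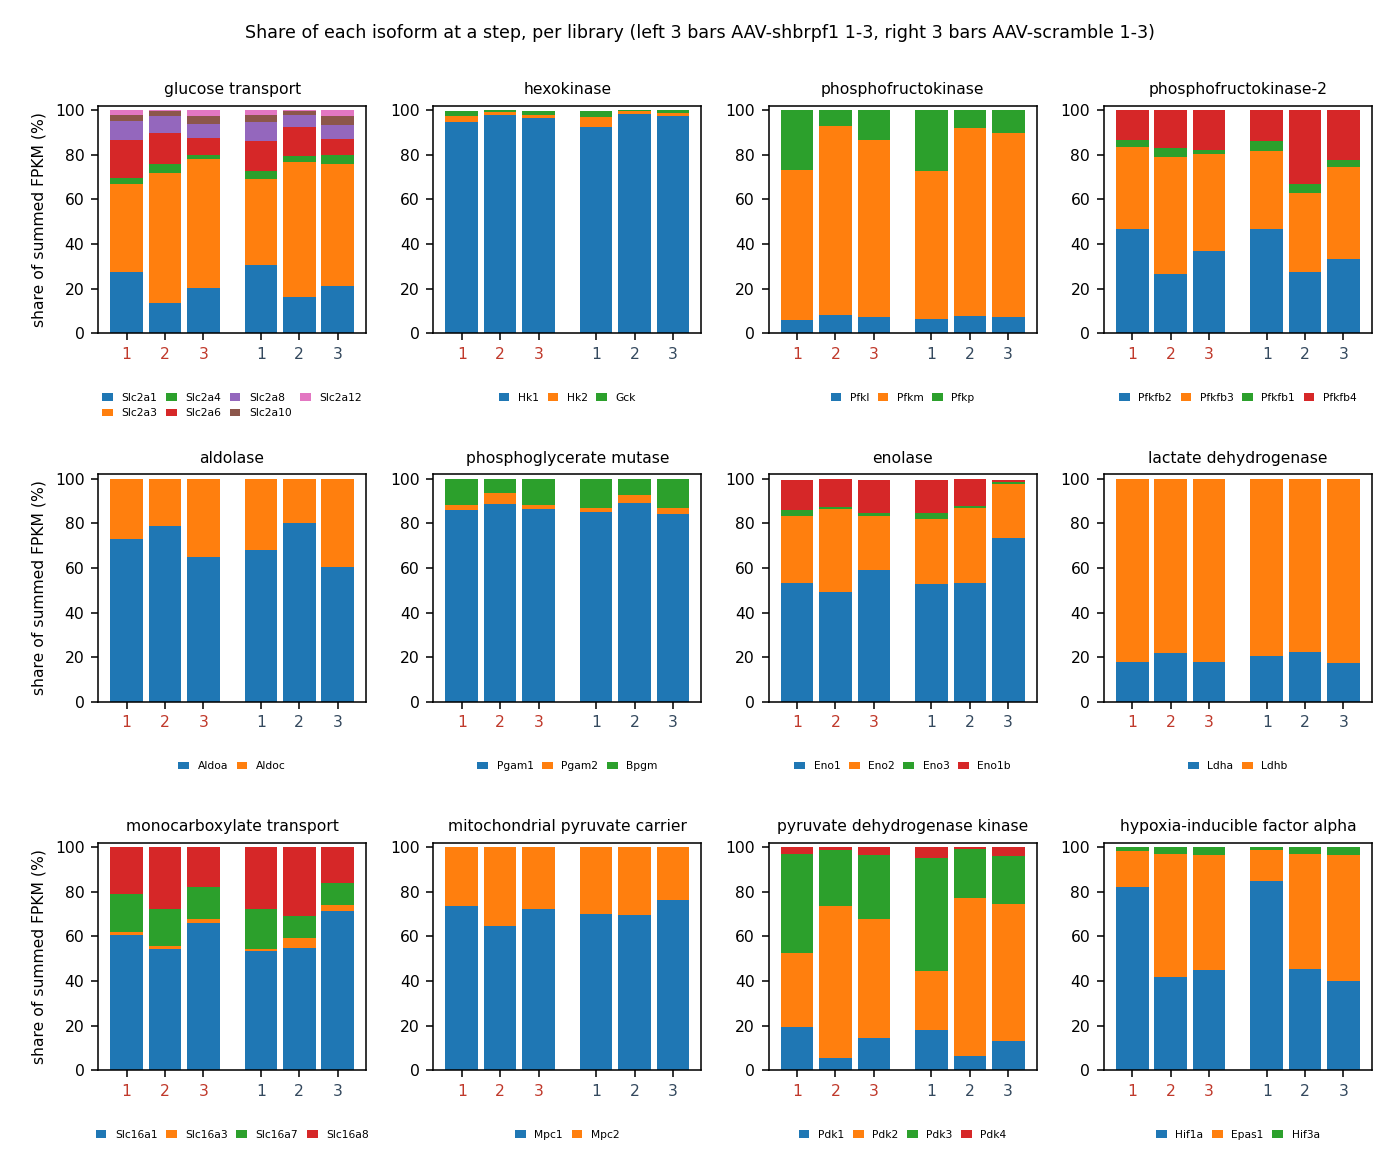
Share (%) of each isoform in the FPKM summed over a step, for 12 steps, with the 3 AAV-shbrpf1 libraries on the left of each panel and the 3 AAV-scramble libraries on the right, by replicate number; isoforms that stay at or under 1% in all libraries are not drawn. Hexokinase is almost all Hk1 and lactate dehydrogenase mostly Ldhb, while the shares of Pfkp, Pdk2 and Hif1a differ between the libraries numbered 1 and 2 in both groups. Shares are not corrected for GC content.

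At the branch to lactate the heart-type Ldhb, the form known to favour pyruvate as product, held 77.5% to 82.8% of lactate dehydrogenase FPKM. Ldhb (chr6:142490249-142507957) had 205, 212 and 182 FPKM in AAV-shbrpf1 libraries and 192, 198 and 201 FPKM in AAV-scramble libraries, the most even of the abundant members. Ldha, the muscle-type subunit, had 45.1, 60.2 and 39.8 FPKM in AAV-shbrpf1 libraries and 49.9, 57.2 and 41.7 FPKM in AAV-scramble libraries. The monocarboxylate transporters, which move lactate and pyruvate across the membrane, were low, at 4.47 to 7.89 FPKM summed. Slc16a1 held 53.2% to 71.6% of that, Slc16a8 16.2% to 30.6% and the neuronal Slc16a7 9.75% to 17.8%. Slc16a3, the lactate exporter of glycolytic cells and astrocytes, rested on an estimated 4.37 to 8.98 fragments per AAV-shbrpf1 library and 5.54 to 19.5 per AAV-scramble library, too few to show a difference at this depth. It overlaps Csnk1d in the annotation.

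On the mitochondrial side Mpc1 had 8.35 to 16.2 FPKM and its partner Mpc2 4.24 to 5.80 FPKM. Pdha1, the catalytic E1 alpha subunit of pyruvate dehydrogenase, had 98.4, 41.0 and 53.1 FPKM in AAV-shbrpf1 libraries and 97.5, 46.2 and 51.2 FPKM in AAV-scramble libraries. Pdhb, the E1 beta subunit, had 43.9, 23.1 and 29.5 FPKM in AAV-shbrpf1 libraries and 45.3, 22.6 and 28.5 FPKM in AAV-scramble libraries, and Dlat, the E2 subunit, 16.6 to 24.8 FPKM over all 6. For Pdha1 and Pdhb number 1 was high and number 2 low in both groups, opposite to Hk1, Gpi1, Aldoa and Gapdh. Dld, the shared E3 subunit, held 10.1% to 19.0% of the complex and Pdhx, which anchors it, 7.76% to 9.67%. Among the kinases Pdk2 (chr11:95026258-95041354), the widespread isoform, had 7.94, 20.9 and 15.0 FPKM in AAV-shbrpf1 libraries and 6.02, 22.8 and 16.9 FPKM in AAV-scramble libraries. Pdk2 held 33.2% and Pdk3 44.4% of kinase FPKM in AAV-shbrpf1 library 1, and 26.4% and 50.6% in AAV-scramble library 1. In the libraries numbered 2 the order was the reverse, with Pdk2 at 68.2% and 70.8% and Pdk3 at 25.03% and 21.9%. The longest transcript of Pdk2 has 56.9% GC and that of Pdk3 47.7% GC. Shares were not corrected for the GC trend between numbers described below. Pdk1, known as a Hif1a target, held 5.57% to 19.3%, and Pdk4, the isoform induced by fasting, 0.962% to 4.96%.

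Hif1a (chr12:73901375-73947530) had 20.6, 5.94 and 12.99 FPKM in AAV-shbrpf1 libraries and 21.3, 7.41 and 11.2 FPKM in AAV-scramble libraries. It held 82.2% of the alpha subunits in AAV-shbrpf1 library 1 and 84.7% in AAV-scramble library 1, but 39.9% to 45.5% in the other 4, where Epas1, the alpha subunit best known from endothelium and glia, held 51.5% to 56.6%. AC124712.1, a gene annotated inside and beyond the end of Hif1a on the same strand that shares long stretches of sequence with it, had 4.83, 1.61 and 3.74 FPKM in AAV-shbrpf1 libraries, and in AAV-scramble libraries was listed at 0, 0 and 0.532 FPKM. It is named because its groups did not overlap, which was seen in the values; limma gave a log2 difference of 1.85 ± 0.36 (SE) with an adjusted p of 1.00. An estimate that failed in some libraries cannot be told apart from a difference in RNA, and Hif1a itself did not follow it.

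ACGTG is a form of the core sequence that hypoxia-inducible factor is known to bind, and only this form was counted. RefSeq start windows (build GRCm38.p6, from 250 bases before to 50 after a start) were found for 33 of the 35 symbols, 49 windows in all. The core lay on either strand in 22 of these windows (44.9%), of 18 symbols, compared with 19.6% of 32851 windows of the same 300 bases over the genome. Those windows were not matched to the members in base composition or level of expression, so the 2 shares are not like for like. Overlapping matches on opposite strands were counted as 1 site. Windows of the same gene can overlap and share a site, as for Aldoa. At least 2 sites lay in 9 of the 49 windows, compared with 2.69% of the 32851. Of these, Hk1, Pkm, Pfkm and Slc16a1 reached 2 only with the 50 bases after a start and are not shown. Shown are the members with at least 2 sites within the 250 bases before a start, chosen after the matches were counted, 5′ to 3′ on the gene's strand with the core in capitals.
Ldha (chr7:46845554-46845803, plus strand): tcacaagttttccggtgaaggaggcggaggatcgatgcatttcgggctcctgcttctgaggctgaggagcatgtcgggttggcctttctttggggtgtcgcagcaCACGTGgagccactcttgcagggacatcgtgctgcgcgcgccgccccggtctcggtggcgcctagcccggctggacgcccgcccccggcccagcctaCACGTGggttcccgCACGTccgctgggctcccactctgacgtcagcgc
Pgk1 (chrX:106186850-106187099, plus strand): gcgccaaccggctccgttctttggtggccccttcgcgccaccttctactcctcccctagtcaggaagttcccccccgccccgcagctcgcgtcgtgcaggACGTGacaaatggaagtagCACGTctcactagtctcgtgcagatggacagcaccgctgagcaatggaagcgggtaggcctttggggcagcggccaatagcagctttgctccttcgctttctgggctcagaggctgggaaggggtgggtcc
Hif1a (chr12:73907617-73907866, plus strand): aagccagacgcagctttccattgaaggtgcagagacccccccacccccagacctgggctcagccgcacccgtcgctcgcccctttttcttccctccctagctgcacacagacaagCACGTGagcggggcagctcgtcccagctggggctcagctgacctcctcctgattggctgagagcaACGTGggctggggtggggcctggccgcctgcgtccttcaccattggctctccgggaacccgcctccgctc
Hk2 (chr6:82774455-82774704, minus strand): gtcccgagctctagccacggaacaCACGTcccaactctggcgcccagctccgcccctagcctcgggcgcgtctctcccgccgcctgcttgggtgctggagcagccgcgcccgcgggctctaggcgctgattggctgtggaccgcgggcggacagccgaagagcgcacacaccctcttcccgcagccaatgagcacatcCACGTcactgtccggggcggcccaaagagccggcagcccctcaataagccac
Slc16a3 (chr11:120948817-120949066, plus strand): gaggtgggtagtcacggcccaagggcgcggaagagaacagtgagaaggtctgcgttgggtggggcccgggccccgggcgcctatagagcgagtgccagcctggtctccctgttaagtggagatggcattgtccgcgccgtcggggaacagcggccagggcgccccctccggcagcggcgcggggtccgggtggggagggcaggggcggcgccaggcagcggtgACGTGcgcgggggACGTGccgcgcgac
Ldha held 3 such sites, and CACGTG, the core on both strands at once, accounts for those that span 6 capitals. These 5 genes covered nearly the whole range of member levels, with Pgk1 at 99.2 to 151 FPKM, Ldha at 39.8 to 60.2 FPKM, Hif1a at 5.94 to 21.3 FPKM, Hk2 at 0.524 to 1.19 FPKM and Slc16a3 at 0.077 to 0.213 FPKM. Among them Ldha was highest and Pgk1 and Hif1a lowest in number 2 as deposited, and Hk2 and Slc16a3 were not tested. With the GC trend described below removed, Hif1a (-0.38, log2) still passed in number 2 relative to number 1. Ldha (0.29) and Pgk1 (-0.29) then did not pass. A match of letters describes the window and does not show binding.

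Several members share long stretches of sequence with other genes or pseudogenes, to which their fragments may be assigned. Counting only annotated genes that share at least 100 runs of 50 bases with the member, copies of Gapdh (87, of which 11 averaged at least 1 FPKM) held 51.6% to 54.4% of the FPKM of Gapdh and its copies together. The copy of Mpc1 held 67.7% to 74.1%, those of Pgam1 38.3% to 45.02%, those of Eno1 30.1% to 41.4% and those of Pgk1 22.5% to 24.1%. The share on copies of Pkm was 4.48% to 8.62%. That on AC124712.1, which was counted in the same way but overlaps Hif1a on the same strand, was 19.0% to 22.4% in AAV-shbrpf1 libraries and 0% to 4.53% in AAV-scramble libraries. The levels of these genes are uncertain to that extent. Whether strand was used in counting is not stated, so Pfkp and Pitrm1, Aldoa and Fam57b, and Slc16a3 and Csnk1d, which overlap, cannot be fully separated either.

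**Figure D3:**
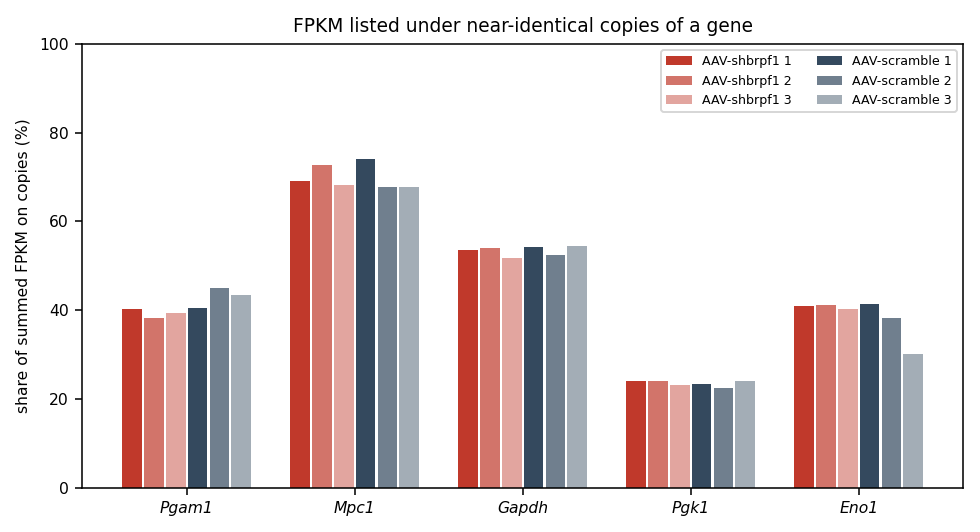
Share (%) of the FPKM of a gene and its near-identical copies that is listed under the copies, for the 5 genes where it exceeds 10% in all libraries, with AAV-shbrpf1 libraries in red left of AAV-scramble libraries in dark blue. It stays between 67.7% and 74.1% for Mpc1 and between 51.6% and 54.4% for Gapdh.

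The hairpin against Brpf1 was then compared with the scrambled hairpin, the contrast that the labels define. No member passed the test in either direction. Of the 36 rows, 32 (31 symbols) averaged at least 1 FPKM in a group and were tested; Hk2, Slc16a3, Slc16a7 and Pdk4 were not. With limma on log2(FPKM + 1), 0 of the 32 passed a Benjamini-Hochberg adjusted p under 0.05 and 0 had an unadjusted p under 0.05, beside 0% and 0.18% (23 genes) of the 12792 genes tested. The groups overlapped for every tested row, against 1.07% of all genes whose groups did not overlap. Log2 differences, AAV-shbrpf1 minus AAV-scramble, ran from -0.15 to 0.28 with a median of 0.01, beside a median of -0.02 over all genes.

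The smallest p belonged to Pfkfb3 (chr2:11471433-11554077), the phosphofructokinase-2 known to drive glycolytic flux. It had 4.90, 4.65 and 4.52 FPKM in AAV-shbrpf1 libraries and 4.64, 2.76 and 3.88 FPKM in AAV-scramble libraries, a log2 difference of 0.28 ± 0.24 (SE; limma adjusted p = 1.00). Each AAV-shbrpf1 library was the higher of its pair, but number 1 differed little. Tpi1 followed with 0.18 ± 0.30 and Mpc2 with 0.11 ± 0.22. On the other side stood Slc2a1, with 5.98, 5.501 and 5.87 FPKM in AAV-shbrpf1 libraries and 7.52, 6.31 and 5.85 FPKM in AAV-scramble libraries and a log2 difference of -0.15 ± 0.21, then the second row of Aldoa with -0.14 ± 0.25 and Hk1 with -0.14 ± 0.48.

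Same-numbered libraries were also compared directly. AAV-shbrpf1 was higher in 3 of 3 pairs for 6 members (Eno2, Tpi1, Pfkfb2, Mpc2, Pfkfb3 and Eno3), which is 18.8% of the 32, beside 7.15% of all genes. It was lower in 3 of 3 pairs for 0 members (beside 11.3% of all genes). Pair 1 was almost level for Eno3, at 0.0027% of the AAV-scramble level, and for Pfkfb2, at 0.63%. With a replicate block, that is the number as a term of the fit, the median SE of the members was 0.10, against 0.30 without it, and still 0 of 12792 genes passed; 280 genes and 0 members had an unadjusted p under 0.05. The members nearest to the threshold were then Tpi1, Eno2 and Pfkfb3, each with a limma adjusted p of 1.00. Under the block the 95% interval of Gapdh ran from -0.27 to 0.25 and that of Ldha from -0.25 to 0.16 on the log2 scale. Wider ones were those of Hk1, from -0.57 to 0.30, Pfkfb3, from -0.06 to 0.61, and Pdk3, from -0.17 to 0.45.

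**Figure D4:**
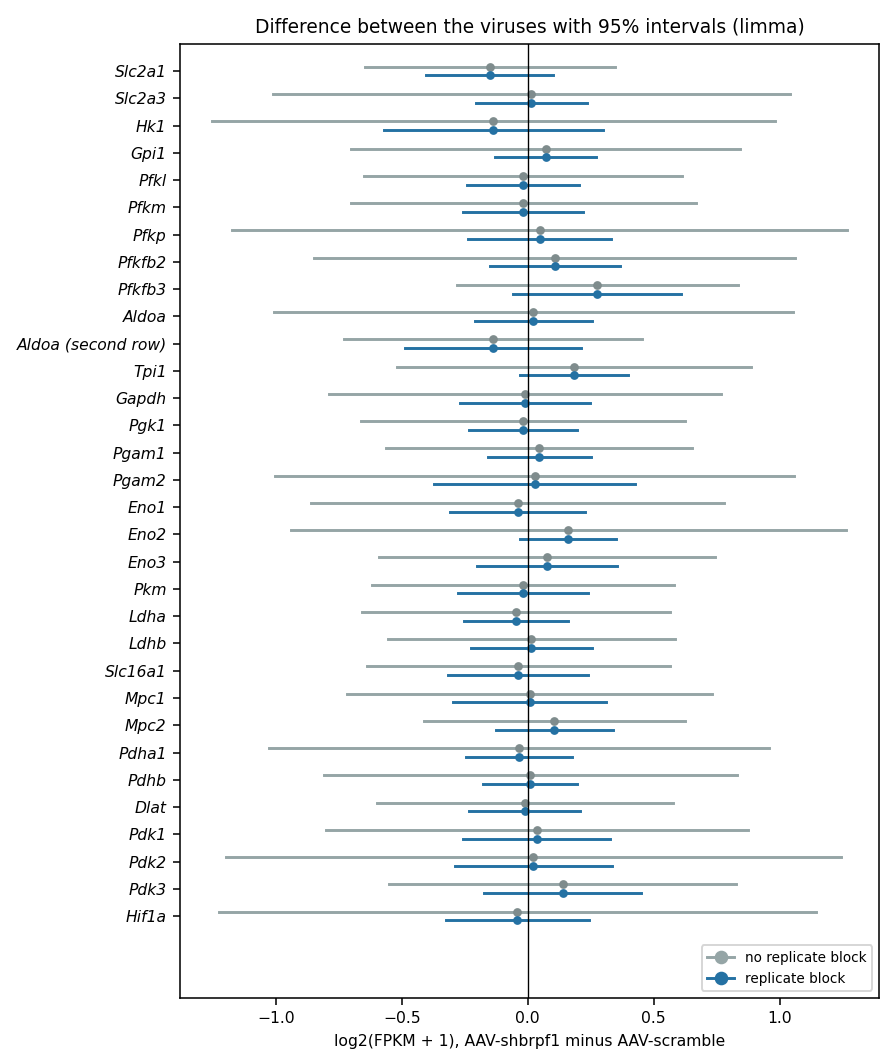
Log2 difference in FPKM + 1, AAV-shbrpf1 minus AAV-scramble, with 95% intervals from limma for the 32 tested rows; grey is the fit without a block and blue the fit with the replicate number as a block. All grey and blue intervals include 0, and the blue ones are narrower.

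The members differed far more between replicate numbers than between viruses. With the virus in the model, limma's F test over numbers passed (adjusted p under 0.05) for 26 of the 32 members (81.2%), beside 69.4% of all genes tested; without AAV-shbrpf1 library 1 it passed for 17 members and without AAV-scramble library 1 for 16. In number 2 relative to number 1, 13 members rose: the transporter Slc2a3, Hk1, Gpi1, Pfkl, Pfkm, Aldoa, Tpi1, Gapdh, Pgam2, Eno1, Eno2 and Ldha of the path from glucose to lactate, and the kinase Pdk2. They made 40.6% of the 32, beside 22.9% of all genes. In the same contrast 11 fell (34.4%, beside 42.4% of all genes): Pfkp, Pfkfb2, Pgk1, Slc16a1, Mpc1, Pdha1, Pdhb, Dlat, Pdk1, Pdk3 and Hif1a. Named after their values were seen, the extremes were Pdk2 at 1.53 ± 0.15 (log2, SE; limma adjusted p = 0.0012), Hk1 at 1.31 ± 0.21 (limma adjusted p = 0.0037) and Slc2a3 at 1.28 ± 0.11 (limma adjusted p = 0.0011) on the high side. On the low side stood Hif1a at -1.52 ± 0.14 (limma adjusted p = 0.0011), Pfkp at -1.47 ± 0.14 (limma adjusted p = 0.0012) and Pfkfb2 at -1.16 ± 0.13 (limma adjusted p = 0.0014). Of the 5 tested members at mitochondrial entry Mpc1, Pdha1, Pdhb and Dlat were among those that fell, and Mpc2, at -0.30 ± 0.11, did not pass (limma adjusted p = 0.060). Once the GC trend of each library was removed, Pdha1 (-0.42) and Pdhb (-0.31) still passed on the low side, Mpc1 (-0.18) and Dlat (0.07) did not pass, and Mpc2 was higher at 0.69 (limma adjusted p = 0.0096). Leaving out AAV-scramble library 1 left 7 members higher and 7 lower.

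In number 3 relative to number 1, 4 members rose (Slc2a3, Aldoa, Pdk2 and Eno1, beside 15.3% of all genes). In the same contrast 8 fell (Dlat, Hif1a, Pfkp, Pdhb, Pfkfb2, Pdha1, Pdk3 and Eno3, beside 15.8% of all genes). These calls needed both libraries numbered 1 and were lost when either was left out, which leaves that number a single library. In number 2 relative to number 3, 11 members rose, beside 12.9% of all genes, and 5 fell, beside 34.3%. The median of all genes in number 2 was -0.25 on the log2 scale relative to number 1 and -0.25 relative to number 3, and upper-quartile scaling brought both to -0.14. The medians of the members were 0.10 and 0.35.

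These differences ran with base composition. Over 12785 genes the difference of number 2 minus number 1 correlated with the GC content of the longest transcript at Spearman 0.77 and Pearson 0.74, and over the 32 members at 0.72 and 0.73; the genes share libraries and are not independent, so these describe the libraries. Slc2a3, with 47.4% GC, rose, and the other 12 members that rose had 51.5% GC (Ldha) to 57.4% GC (Eno1). The 11 that fell had 41.3% GC (Hif1a) to 49.7% GC (Pgk1). When the GC trend of each library was removed, an alternative chosen after seeing the data, the F test passed for 21 members (65.6%), beside 42.5% of all genes. In number 2 relative to number 1, 10 members were then higher (18.1% of all genes) and 7 lower (16.9%). Slc2a3 stayed at 1.78 ± 0.09, Pdk2 at 1.04 ± 0.14 and Pfkp at -1.04 ± 0.12, while Hif1a was left with -0.38 ± 0.09. Dlat, Slc16a1 and Mpc2 changed sign, to 0.07, 0.52 and 0.69. Against number 3, number 2 then had 10 members higher (10.3% of all genes) and 0 lower in limma's test (9.11% of all genes). The share of higher among called genes was 35.1% for number 2 minus 1 as deposited, 51.7% with the GC trend removed and 41.5% with upper-quartile scaling; for number 2 minus 3 it was 27.3%, 53.1% and 39.4%. Fabp7, cycling-cell and mural marker levels and the ribosomal share also moved with the numbers, glial markers did so in both directions, and their part in these differences was not tested. The isoform shares given above were taken from the deposited values, with the GC trend left in. Pfkm has 54.7% GC and Pfkp 48.0%, and Epas1 has 52.5% GC and Hif1a 41.3%. With the trend removed Pdk3 went from -0.53 to -0.06 in number 2 relative to number 1.

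**Figure D5:**
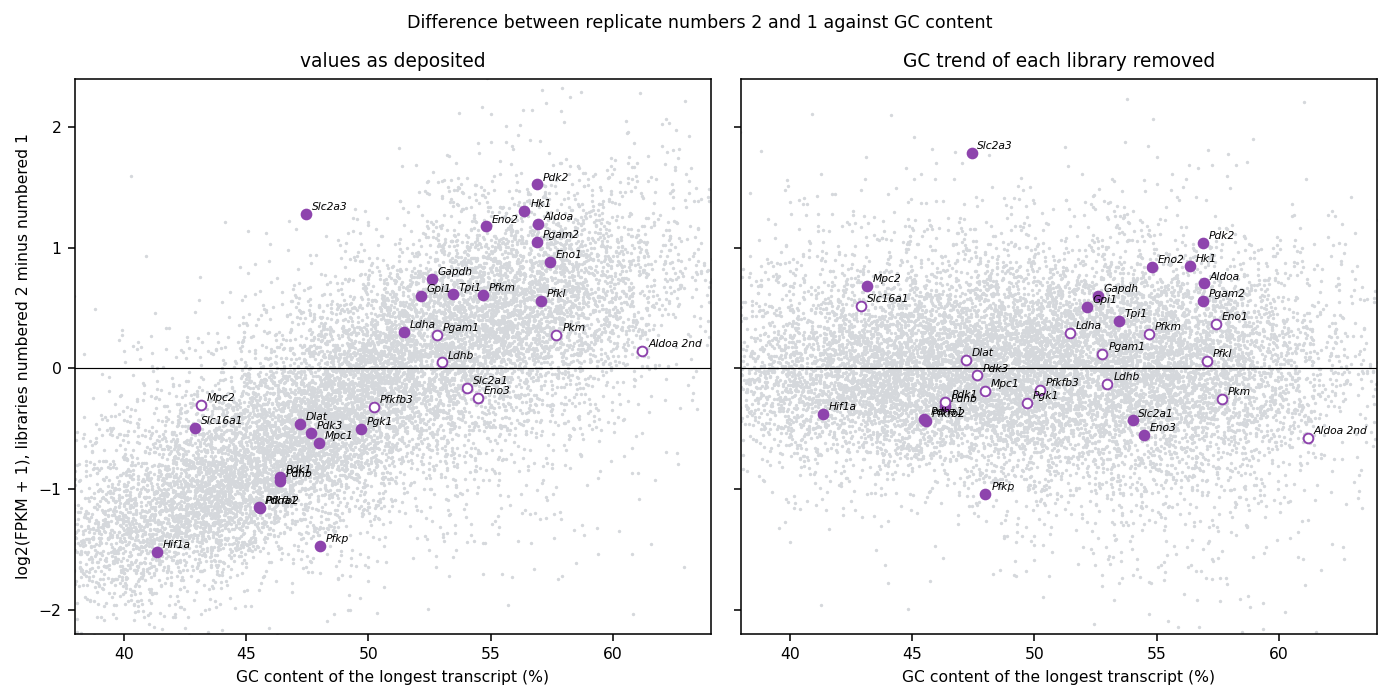
Log2 difference in FPKM + 1 between libraries numbered 2 and libraries numbered 1 against the GC content (%) of the longest transcript, as deposited on the left and with the GC trend of each library removed on the right. Grey points are all genes tested that fall within the axes; purple circles are members, filled where limma's adjusted p is under 0.05. Members follow the slope of all genes on the left, and Slc2a3 and Pfkp stand off it.

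Around the pathway 7 further lists of genes were read from the same fit, and 0 of their 49 tested genes passed between the viruses in limma's test. Only 1, the adenylate kinase Ak4, had an unadjusted p under 0.05, beside 0.18% of all genes. Ak4 had 0.457, 2.98 and 0.681 FPKM in AAV-shbrpf1 libraries and 2.88, 4.15 and 6.09 FPKM in AAV-scramble libraries. Its log2 difference was -1.29 ± 0.43 (SE), and the groups overlapped. Among partners and regulators of hypoxia-inducible factor, the most abundant were Arnt2, a dimer partner, with 51.3 to 63.6 FPKM in AAV-shbrpf1 and 49.4 to 63.7 FPKM in AAV-scramble libraries, and the prolyl hydroxylase Egln2 with 15.3 to 25.04 FPKM in AAV-shbrpf1 and 16.3 to 23.1 FPKM in AAV-scramble libraries. Of 10 tested genes known to be induced by hypoxia, 0 rose and 5 fell in number 2 relative to number 1, where 22.9% of all genes rose and 42.4% fell. Among them were Bnip3l at -1.28, Vegfa at -1.18 and Bnip3 at -1.07 (log2). With the GC trend removed these stood at -0.17, -1.12 and 0.05. In that fit Hif1a (-0.38) still passed, and the members Ldha (0.29), Eno1 (0.37), Pgk1 (-0.29) and Pdk1 (-0.28) did not. Ldha and Eno1 fell just short, with limma adjusted p = 0.056 and 0.055. Of all members 10 passed on the high side, among them Slc2a3 (1.78), Hk1 (0.85), Aldoa (0.70), Gapdh (0.60) and Tpi1 (0.39). On the low side 7 passed, Hif1a and Slc2a1 (-0.43) among them. Whether members followed the RNA of Hif1a was not tested. For number 2 relative to number 1, the counts that follow stand beside the same 22.9% and 42.4% of all genes. Of the pentose phosphate pathway 4 of 7 genes rose and 2 fell; Tkt, transketolase, had 26.9, 57.6 and 34.5 FPKM in AAV-shbrpf1 libraries and 27.5, 53.6 and 39.1 FPKM in AAV-scramble libraries, and Taldo1, transaldolase, 23.1 to 35.6 FPKM over all. In the glycogen and glycerol branches 3 of 9 rose, with brain glycogen phosphorylase Pygb and Pgm2 the most abundant, and 4 fell. The cytosolic malate dehydrogenase Mdh1 fell by 0.98 (log2) and the mitochondrial Mdh2 was higher by 0.75, in a list of NADH shuttle genes of which 2 of 6 rose and 2 fell; with the GC trend removed Mdh1 was at -0.28 and did not pass, and Mdh2 was at 0.80. Bsg, the chaperone of monocarboxylate transporters, had 113, 194 and 155 FPKM in AAV-shbrpf1 libraries and 117, 224 and 225 FPKM in AAV-scramble libraries, and was higher in number 2 than in number 1 by 0.85 (log2), but by 0.32, no longer past the threshold, with the GC trend removed. Of the 3 serine synthesis genes Phgdh rose, by 0.59 (0.084 with the GC trend removed), and Psat1 and Psph did not pass.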

How the data were processed

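Paired-end total RNA libraries of 6 samples were summarised by the authors in a single deposited table of 55335 genes, whose values are read here as FPKM because they are not whole and do not sum to a fixed total; the header names no unit. The submitters' processing notes list FastQC, StringTie, DESeq2 and the build mm9, with neither version nor role. However, start and end in the table equal those of GENCODE M21 for 54899 of 55154 shared identifiers, among them the 36 member rows, so GENCODE M21 (GRCm38) was used to read the annotation. The aligner and whether strand was used are not stated.

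The unit decides the test, so log2(FPKM + 1) was tested for the 12792 genes that averaged 1 FPKM or more in either group, with limma 3.58.1 (trend, two-sided) in R 4.3.3, adjusted by Benjamini-Hochberg over all of them with a threshold of 0.05; on this scale a low gene's change is understated. Replicate numbers were tested with the virus in the model. Deviations from the group means correlated at 0.87, 0.83 and 0.57 between libraries of the same number, so the numbers were taken to pair the samples. Between others they correlated at most at 0.002. Deviations cancel within a group, so these low values follow in part from the high ones and add little. Depth is 1 fragment per smallest common step of FPKM times length in single-exon genes, and fragments of a gene were estimated from its longest transcript. Copies are annotated genes with at least 100 runs of 50 bases in common with a member. The fits between the viruses were also run on simulated data with changes larger than any member difference seen, so small differences were not covered.

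The members and lists were chosen with earlier results of these data known. All members with a mean of at least 20 FPKM, and the 3 of smallest p in each direction, were to be given in every library; Slc2a3, Pfkp, Pdk2 and Hif1a were added after their values were seen. Of the other lists the most abundant genes are named, and some genes that this rule would name are left out. Alternatives were another pseudocount, filter or scaling, the replicate block, and libraries or pairs left out; removal of the GC trend and summing of copies were chosen after seeing the data.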

Additional observations from a re-analysis of the deposited data

How the results depend on the processing

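The count of 0 genes called between AAV-shbrpf1 and AAV-scramble held in limma under another pseudocount, filter or scaling, without each library in turn, under the replicate block (0 genes, 280 at an unadjusted p under 0.05), and with the GC trend removed or copies summed, both chosen after seeing the data. The replicate block without pair 2 gave 8 genes and without pair 3 gave 1, none of them a member; the cause was not tested. No member was called between the viruses under any of these alternatives, and the replicate block changed no other call. The sign of these uncalled differences changed in 115 of 569 alternative values, in 28 genes.

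Genes that differed between replicate numbers were 8876, against 5493 at a mean of at least 5 FPKM, where fewer genes are tested, 5428 with the GC trend removed, and 4793 to 8885 without one library at a time. Leaving out AAV-shbrpf1 library 1 gave 5331 genes and 17 members, and leaving out AAV-scramble library 1 gave 4793 genes and 16 members. Leaving out any other library, which removes as many samples, changed both counts less. The cause was not tested. Members that differed were 26, against 16 to 24 without one library. Members higher in number 2 than in number 1 were 13, against 7 to 14 without one library at a time, 15 with upper-quartile scaling and 10 with the GC trend removed. Members lower were 11, against 7 to 11 without one library, 10 with upper-quartile scaling and 7 with the GC trend removed. With that trend removed Dlat (0.068), Mpc2 (0.69) and Slc16a1 (0.52) reversed; the cause was not tested. Of the other single-gene values of number 2 minus number 1, 306 kept direction and side of the threshold, 28 no longer passed and 8 newly passed.

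Depth limits Slc16a3, Pdk4 and Hk2, and 3 libraries a group limit differences between the viruses to those larger than the intervals given.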
